A study of Saccharomyces cerevisiae with 5 samples.

Results

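The 8 genes described here encode the AP-1-like transcription factors YAP1, CAD1 (also called YAP2), YAP3, CIN5 (YAP4), YAP5, YAP6 and YAP7 of budding yeast, and SKN7, a regulator of the oxidative stress response. They were chosen by gene symbol, with earlier results of these arrays known, and are 8 of 4072 named genes on the arrays, or of 6253 features once unnamed probes are counted. Each of the 8 genes had 1 probe. The values are log2 ratios of Cy5 over Cy3, deposited for 5 two-colour arrays of polyadenylated RNA from Saccharomyces cerevisiae in log phase in synthetic complete medium, with 1 array for each comparison. On 3 arrays a strain lacking the inositol pyrophosphate phosphatase gene SIW14 (Siw14D) was in Cy5 and BY4741, the wild type, in Cy3, with both strains unstressed, both in 0.4 mM hydrogen peroxide for 20 min, or both in 0.4 M KCl for 20 min. For the 2 stressed mutant arrays the treatment entry of the Cy3 cells names the stress, but their source name gives the medium alone. The treatment entry is followed throughout, and if those reference cells were unstressed the ratios hold the stress response as well as the strain difference. On the other 2 arrays the wild-type strain ACY044 in the same peroxide or KCl treatment was in Cy5 and its unstressed cells in Cy3. The mutant arrays address what loss of SIW14 does to the stress response, and the ACY044 arrays give the response of that wild type. No array gives the stress response of BY4741. Below, wild type in peroxide or KCl against unstressed cells is ACY044, and the wild type set against the mutant is BY4741. A wild-type response and a mutant ratio therefore cannot be added as steps in 1 strain. No dye was swapped, so an effect of the dyes cannot be told apart from that of strain or stress. No comparison has a replicate, so no p-value or error can be given, and neighbouring values cannot be called different beyond their spread.

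Yap proteins are basic leucine zipper (bZIP) factors that resemble mammalian AP-1. In Yap1, cysteines oxidised with the help of the peroxidase Hyr1 (Gpx3) block export by Crm1, so the protein gathers in the nucleus and turns on antioxidant and drug resistance genes. Skn7, which joins a DNA-binding domain like that of heat shock factor to a response regulator domain, acts with Yap1 at many of these genes and receives phosphate from the Sln1 and Ypd1 relay. Because much of this control acts on the proteins, the transcript ratios below do not measure factor activity.

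Among the 8 genes, CIN5 stood above the reference on every array and SKN7 below it on every array. Of features with 5 values, 22.3% were above 0 and 21.3% below 0 on all 5 arrays. YAP1 was high on both arrays with peroxide-treated cells in the Cy5 channel. A value was present in 39 of 40 cases, since YAP1 had none for wild type in KCl. Of these, 9 were at least 2-fold higher (a log2 ratio of 1 or more), 1 was at least 2-fold lower and 29 lay between, where 6.17% to 12.8% of all features were higher and 1.57% to 11.7% lower on an array. The 9 higher values belonged to YAP1, CAD1, CIN5 and YAP7, and the lower one to SKN7, while YAP3, YAP5 and YAP6 stayed within 2-fold on all 5 arrays. SIW14 itself lay at -2.07, -1.66 and -2.06 on the mutant arrays (unstressed, peroxide, KCl) and at 0.28 and -0.22 in ACY044 in peroxide and KCl. The number of features with a value was between 5607 and 6151 per array, and array medians were between -0.02 and 0.03. The E1A control features, which are not yeast genes, had medians of 2.08, 1.17 and 0.98 on the mutant arrays (unstressed, peroxide, KCl; 3, 7 and 9 values) and of -0.37 and 0.15 in wild type in peroxide and KCl (10 and 6 values), and their part in the ratios below was not tested.

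**Figure D1:**
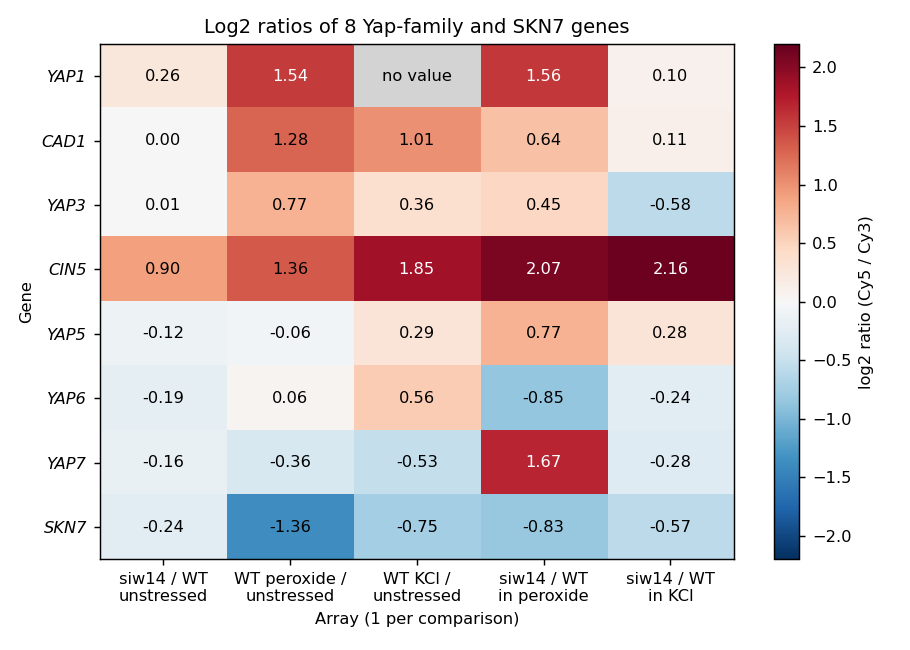
Log2 ratio of Cy5 over Cy3 for each of the 8 genes (vertical axis) on each of the 5 arrays (horizontal axis), with the value printed in each cell, red above 0, blue below 0 and grey for no value. The CIN5 cells run from 0.90 to 2.16 and the SKN7 cells from -1.36 to -0.24.

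YAP1, the main peroxide regulator of the family, lay at 1.54 in wild-type ACY044 cells in peroxide, or 2.92-fold above unstressed cells. With both strains in peroxide it lay at 1.56 in the mutant, or 2.95-fold above BY4741, the other wild type. It lay at 0.26 in the unstressed mutant and at 0.10 in the mutant in KCl. Both arrays with a high YAP1 ratio were thus those with peroxide in the Cy5 channel, but YAP1 had no value for wild type in KCl. On the mutant array the reference cells had peroxide too by their treatment entry, but not by their source name. CAD1, a close relative named for cadmium resistance, lay at 1.28 for wild type in peroxide and 1.01 for wild type in KCl, and at 0.00, 0.64 and 0.11 in the mutant unstressed, in peroxide and in KCl. CAD1 was therefore past 2-fold in the wild-type peroxide response and in none of the mutant comparisons, while its KCl value lay at the limit, at 0.98 after median centring and 0.99 after scaling to the array's spread.

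CIN5 is a factor known for its role in salt and osmotic tolerance. Among members with a value, it had the highest ratio on 4 of the 5 arrays. It lay at 1.85 in wild-type cells in KCl, 3.60-fold above unstressed cells, and at 1.36 in wild-type cells in peroxide, or 2.56-fold. In siw14 cells it lay at 0.90 without stress, 2.07 in peroxide and 2.16 in KCl, which are 1.87-fold, 4.20-fold and 4.46-fold above wild type. CIN5 was at least 2-fold higher on 4 arrays, as were 3.99% of the 5441 features with 5 values on 4 or 5 arrays. In KCl its mutant ratio was higher than that of 97.7% of features with a value. Of the 7 members with 5 values it alone was above 0 on all 5 arrays, a pattern held by 22.3% of features. YAP6, its duplicate partner and likewise a salt tolerance factor when overproduced, lay at 0.06 in wild-type cells in peroxide, 0.56 in wild-type cells in KCl, and -0.19, -0.85 and -0.24 in the mutant unstressed, in peroxide and in KCl. The YAP6 values were below 0 on all 3 mutant arrays, where those of CIN5 were above 0. The share of features below 0 on these 3 arrays was not counted. In the mutant unstressed and in KCl, 29.5% and 37.5% of features lay below YAP6, so its sign there carries little.

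**Figure D2:**
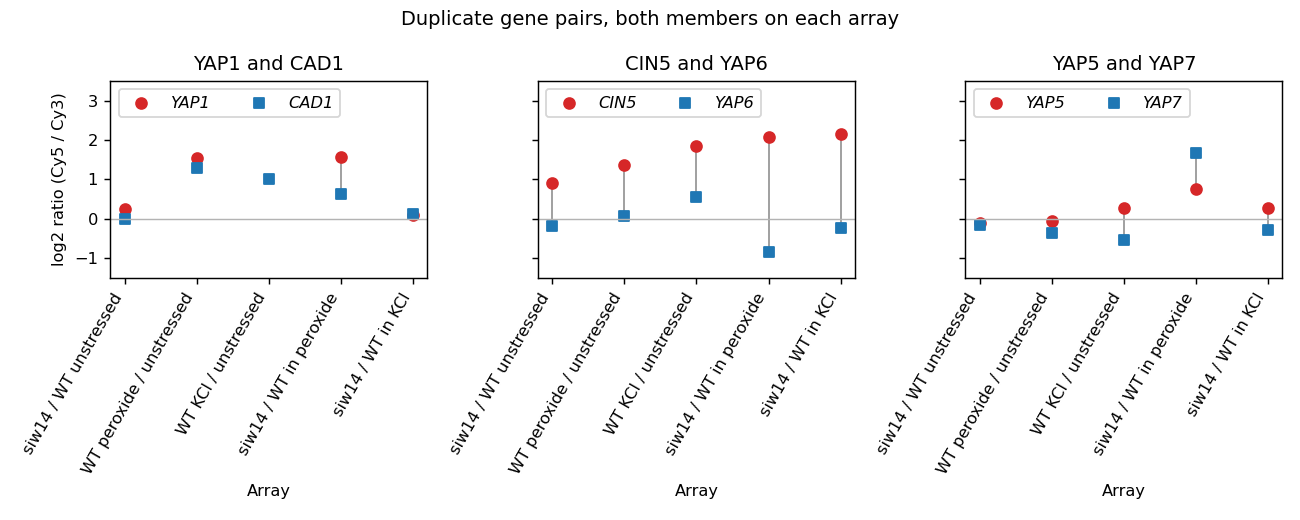
Log2 ratio of both genes of each duplicate pair (red circles and blue squares, joined by a grey line) on each of the 5 arrays, with YAP1 lacking a value for wild type in KCl. The gap between CIN5 and YAP6 is 1.09 in the unstressed mutant and 2.92 in the mutant in peroxide.

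The gaps within the 3 duplicate pairs are given without a background of other gene pairs, so they describe these genes only. CIN5 exceeded YAP6 on every array, by log2 differences of 1.09 in the unstressed mutant, 1.29 in each of the wild-type responses, 2.92 in the mutant in peroxide and 2.40 in the mutant in KCl. YAP1 exceeded CAD1 by 0.26 in the unstressed mutant and in wild type in peroxide, and by 0.92 in the mutant in peroxide, and the difference was -0.01 in the mutant in KCl. YAP5 exceeded YAP7 by 0.05 to 0.82 on 4 arrays, and YAP7 exceeded YAP5 in the mutant in peroxide alone, where YAP5 minus YAP7 was -0.91.

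YAP7, a repressor of the nitric oxide dioxygenase gene YHB1, lay at 1.67 in the mutant in peroxide, 3.19-fold above the treated wild type, and between -0.53 and -0.16 on the other 4 arrays. The wild-type responses were -0.36 to peroxide and -0.53 to KCl, and the mutant ratios were -0.16 without stress and -0.28 in KCl. Its one high ratio was thus on the array with both strains in peroxide, and 1.80% of features with 5 values were likewise at least 2-fold higher there and within 2-fold on the other 4. YHB1 lay at 0.36 on that array, 0.61 in wild type in peroxide, -1.02 in wild type in KCl, and -0.46 and -0.70 in the mutant unstressed and in KCl. YAP5, a sensor of high iron, lay at -0.12, -0.06, 0.29, 0.77 and 0.28 for the unstressed mutant, wild type in peroxide, wild type in KCl, and the mutant in peroxide and in KCl. YAP3, whose role is less well defined, lay at 0.01, 0.77, 0.36, 0.45 and -0.58 in the same order. All values of YAP5 and YAP3 were within 2-fold, as were all 5 values for 56.3% of features.

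SKN7 had the lowest ratio among members with a value on 3 of the 5 arrays. It was below 0 on all 5, as were 21.3% of features with 5 values. It lay at -1.36 in wild-type cells in peroxide, 2.57-fold below unstressed cells, and at -0.75 in wild-type cells in KCl, or 1.68-fold below. In siw14 cells it lay at -0.24 without stress, -0.83 in peroxide and -0.57 in KCl against wild type. In the wild-type peroxide response YAP1 and SKN7, whose products share target genes, were on opposite sides of 0 by more than 2-fold each. HMS2, the duplicate partner of SKN7, was below 0 throughout as well, at -0.94, -0.76, -1.12, -0.13 and -0.56 for the unstressed mutant, wild type in peroxide, wild type in KCl, and the mutant in peroxide and in KCl.

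On each of the peroxide arrays YAP1 and CIN5 were joined by another member past 2-fold. In wild-type cells in peroxide 3 of 8 members (YAP1, CIN5, CAD1) were at least 2-fold higher, against 10.7% of features, and 1 of 8 was at least 2-fold lower, against 11.3%. With both strains in peroxide 3 of 8 (CIN5, YAP7, YAP1) were at least 2-fold higher in the mutant, against 12.8%, and 0 lower, against 8.31%. In wild type in KCl 2 of 7 were higher, against 11.5%, and 0 lower, against 11.7%. In the mutant in KCl 1 of 8 was higher, against 11.4%, and 0 lower, against 11.0%. In the unstressed mutant 0 of 8 were past 2-fold in either direction, against 6.17% of features higher and 1.57% lower. With so few genes these counts describe the members and are not a test. The medians of the members were -0.06 in the unstressed mutant, 0.41 and 0.36 in wild type in peroxide and KCl, and 0.71 and -0.07 in the mutant in peroxide and KCl. Over all features the 5 medians were 0.00, 0.03, 0.03, -0.02 and 0.00 in that order. Among members with a value, CIN5 had the highest ratio on both KCl arrays, while YAP1 had no value in wild type in KCl.

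**Figure D3:**
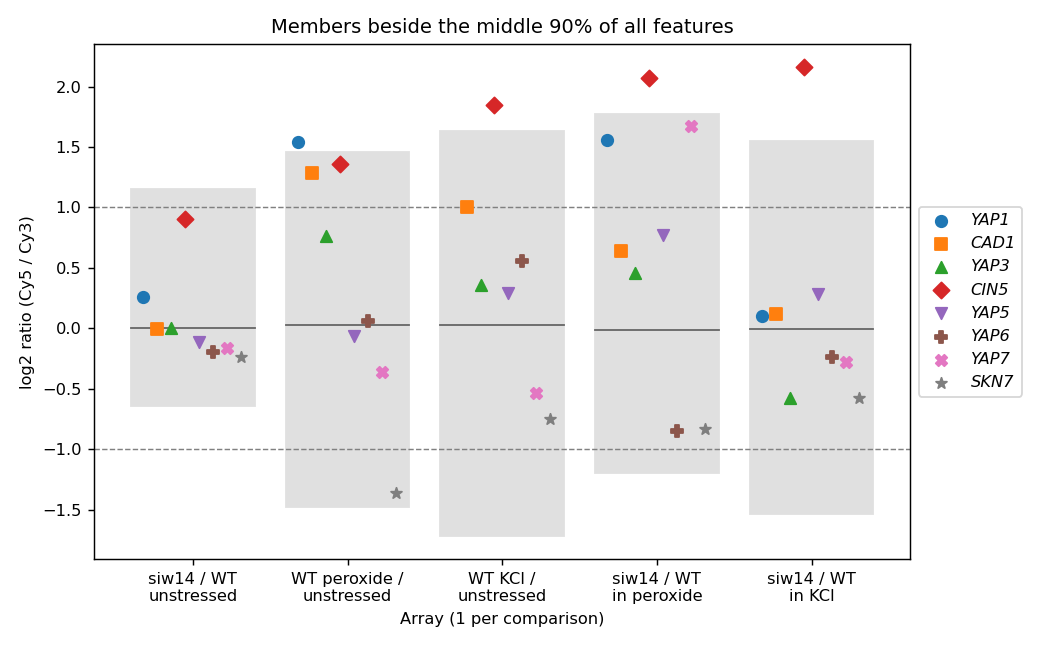
Log2 ratio of each of the 8 genes (coloured symbols) on each of the 5 arrays, with grey bars for the 5th to 95th percentile of all features, a grey line for their median and dashed lines at 2-fold. The CIN5 symbols lie above the grey bar for wild type in KCl and for the mutant in peroxide and in KCl, and YAP1 lies above it for wild type in peroxide.

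The mutant ratio of several members differed between conditions. The unstressed array has a narrower spread over all features (0.38 on the log2 scale, as a scaled median absolute deviation) than the peroxide and KCl mutant arrays (0.76 and 0.74). From the unstressed to the peroxide array the log2 ratio of mutant over wild type was higher by 1.84 for YAP7, 1.30 for YAP1 and 1.17 for CIN5, and 5.09% of features differed by at least 1 in that direction. YAP5 followed at 0.89, CAD1 at 0.65 and YAP3 at 0.45, while YAP6 and SKN7 differed the other way, by -0.66 and -0.59. Of the members 0 of 8 fell short by 1 or more, against 3.94% of features. With 8 genes, a count of 0 cannot be told apart from a share this small, here or below. From the unstressed to the KCl array only CIN5 differed by at least 1, at 1.26, against 4.06% of features upward and 7.82% downward. Arrays were also median centred, divided by their spreads and multiplied by the median spread of the 5 arrays before subtraction. The CIN5 differences from the unstressed array then became 0.28 in peroxide and 0.40 in KCl, no longer past 1. Those of YAP7 and YAP1 in peroxide were 1.97 and 1.04, and that of YAP5 was 0.99. Scaled in this way, 7.11% of features differed by at least 1 upward in peroxide and 6.56% in KCl. The peroxide ratio exceeded the KCl ratio by 1.96 for YAP7, 1.46 for YAP1 and 1.03 for YAP3, against 7.26% of features, and fell short by 1 or more for 0 members, against 3.79%, whereas for CIN5 the difference was -0.09. In ACY044 no member with both values differed by 1 or more between peroxide and KCl, where SKN7 differed most, at -0.61, and 8.31% and 9.37% of features differed by at least 1 upward and downward. The ACY044 arrays both use unstressed ACY044 cells as reference.

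Genes that control Yap1 showed mixed ratios. HYR1, the peroxidase that senses peroxide for Yap1, lay at 0.79, 0.77, 0.73 and 1.36 for the unstressed mutant, wild type in peroxide, and the mutant in peroxide and in KCl, with no value for wild type in KCl. CRM1, the exporter of Yap1, lay between -0.51 and 0.16. PSE1, its importer, lay at -1.20 and -1.28 in wild type in peroxide and KCl, and at -0.02, -1.14 and -0.51 in the mutant unstressed, in peroxide and in KCl. The importer was thus at least 2-fold lower on 3 arrays. The shares of features lower there were 11.3% and 11.7% in wild type in peroxide and KCl, and 8.31% in the mutant in peroxide. The exporter was within 2-fold on all 5, as were 56.3% of features with 5 values. TRX2, a thioredoxin gene and Yap1 target whose product reduces Yap1, lay at 3.19 and 1.81 in wild type in peroxide and KCl. In the mutant TRX2 lay at 0.48 unstressed and 1.28 in KCl, with no value in peroxide. Features at least 2-fold higher were 10.7% and 11.5% in wild type in peroxide and KCl, and 11.4% in the mutant in KCl. TRX1, another thioredoxin gene, lay between 0.19 and 0.59. TRR1, of the same reducing system, lay at 1.57 and -0.07 in wild type in peroxide and KCl. In the mutant TRR1 lay at -0.04 unstressed and 0.59 in KCl, with no value in peroxide. Of the Skn7 relay, the osmosensor kinase gene SLN1 lay between -0.85 and -0.14, the relay protein gene YPD1 between -0.34 and 0.09, and SSK1, the other response regulator fed by the relay, between 0.23 and 0.89.

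Known target genes of Yap1, many of which also need Skn7, were nearly all high on the peroxide mutant array, whose reference cells had peroxide by their treatment entry only, whereas their median was near 0 in the unstressed mutant. Of 19 targets found by name, 15 of the 16 with a value on the peroxide mutant array were at least 2-fold higher and 0 lower, against 12.8% and 8.31% of features, and the median was 2.87. In the unstressed mutant 2 of 18 were higher and 1 lower, against 6.17% and 1.57% of features, with a median of -0.03. In wild type in peroxide 12 of 19 were higher and 1 lower, against 10.7% and 11.3%, with a median of 1.91. In wild type in KCl 7 of 18 were higher and 1 lower, against 11.5% and 11.7%, with a median of 0.53. In the mutant in KCl 6 of 18 were higher and 1 lower, against 11.4% and 11.0%, with a median of 0.58. These shares are those of all features on the same array. Over the 15 targets with a value on all arrays the medians were 3.14 in the mutant in peroxide and 1.45 in wild type in peroxide. The old yellow enzyme gene OYE3 was highest in the mutant in peroxide, at 5.90, and the glucose-6-phosphate dehydrogenase gene ZWF1 lowest, at 0.98. GPX2, a glutathione peroxidase gene, was highest in wild type in peroxide at 4.22, and the mitochondrial cytochrome c peroxidase gene CCP1 lowest at -1.25, although CCP1 lay at 3.91 in the mutant in peroxide. The list was drawn from general knowledge with earlier results of these arrays in view, so its direction is a description.

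**Figure D4:**
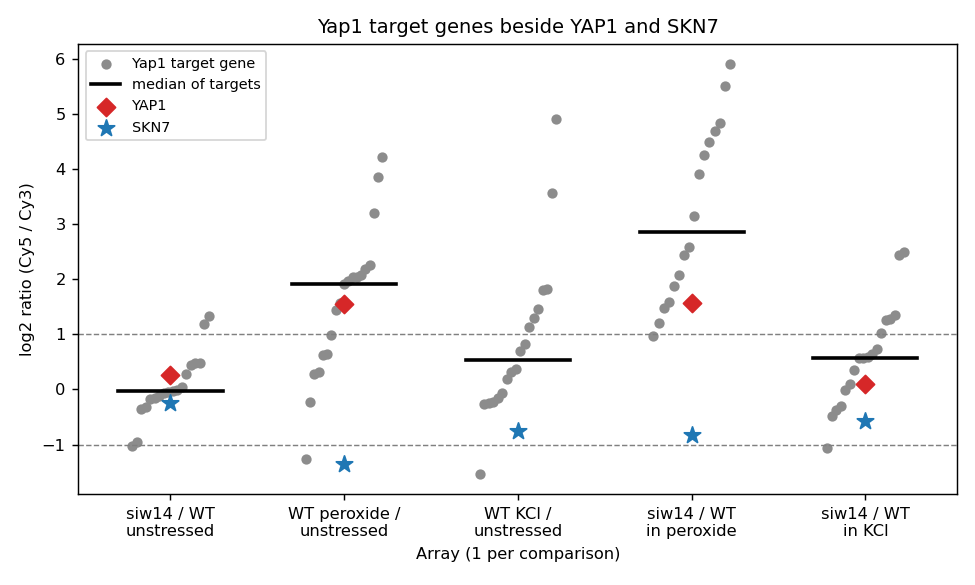
Log2 ratios of Yap1 target genes (grey points, sorted within each array), their median (black bar), YAP1 (red diamond) and SKN7 (blue star) on the 5 arrays, with dashed lines at 2-fold. The target median is -0.03 in the unstressed mutant and 2.87 in the mutant in peroxide, where YAP1 is at 1.56 and SKN7 at -0.83.

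Genes tied to other members gave the following values. CCC1, which encodes the vacuolar iron importer turned on by Yap5, lay at -2.27 in wild type in peroxide and between 0.08 and 0.26 on the other 4 arrays, and GRX4, a glutaredoxin gene also under Yap5, lay at -1.16 in wild type in peroxide and between -0.54 and 0.40 elsewhere. Both Yap5 targets found by name were at least 2-fold lower on that array, as were 11.3% of features, and YAP5 lay at -0.06 there. TUP1 and CYC8 encode the corepressor that Cin5 and Yap6 bind. Both were below 0 on all 5 arrays, as were 21.3% of features with 5 values. In the mutant in peroxide both were at least 2-fold lower, at -1.29 and -1.05, as were 8.31% of features. ARR1 (YAP8), the arsenic-responsive relative that completes the Yap family, lay between -0.14 and 0.55. Its neighbours ARR2, an arsenate reductase gene, and ARR3, an arsenite exporter gene, lay at 2.25 and 2.75 in the mutant in peroxide, 1.05 and 0.75 in wild type in peroxide, and 0.81 or less on the other 3 arrays. Both were thus highest on the array where Yap1 targets were highest. ARR1 was within 2-fold on all arrays, as were 56.3% of features with 5 values.

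The 7 other bZIP factor genes on the arrays (GCN4, HAC1, SKO1, ACA1, CST6, MET4 and MET28) were past 2-fold in 3 of 34 values. On an array, 6.17% to 12.8% of all features were higher and 1.57% to 11.7% lower. HAC1, the unfolded protein response factor, lay at 1.65 and ACA1 at -1.05 in wild type in KCl, and MET28, a sulphur metabolism regulator, at 1.15 in the mutant in peroxide. Their medians were -0.27 in the unstressed mutant, -0.16 and 0.31 in wild type in peroxide and KCl, and 0.44 and 0.31 in the mutant in peroxide and KCl. In wild type in peroxide 0 of these 7 were past 2-fold, where 10.7% of features were higher and 11.3% lower. Of the 8 genes described here 4 were past 2-fold there, 3 higher and 1, SKN7, which is not a Yap gene, lower. In wild type in KCl 1 of the 7 was higher and 1 lower, against 2 of 7 members higher and 0 lower. The shares of features there were 11.5% and 11.7%. In the unstressed mutant neither set had a gene past 2-fold. In the mutant in peroxide 1 of the 7 was higher, against 3 of 8 members and 12.8% of features. In the mutant in KCl 0 of 6 were higher, against 1 of 8 members and 11.4% of features. Neither set had a gene at least 2-fold lower on these mutant arrays. These differences were not tested.

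For each member with 5 values, the 3 named genes with the smallest root-mean-square difference of log2 ratios were taken from 3810 named genes with 5 values. Nearest to CIN5 were PMP3, for a small plasma membrane protein, at 0.16, then the glutaredoxin gene GRX1 and the kinase gene IKS1, each at 0.27. Nearest to CAD1 were NPL4, for a cofactor of the Cdc48 segregase, at 0.10, and the proteasome genes PRE4 and RPN12 at 0.12 and 0.13. Those of SKN7 were GEA1 at 0.13, the potassium transporter gene TRK1 at 0.15 and HFI1, a SAGA subunit gene, at 0.16. YAP7 had no neighbour as close: its nearest were ROX1, the repressor of hypoxic genes, at 0.29, NFU1 at 0.33 and RDS1 at 0.35. ROX1 lay at 1.76 in the mutant in peroxide and at -0.06, 0.17, -0.88 and -0.30 for the unstressed mutant, wild type in peroxide, wild type in KCl and the mutant in KCl. YAP6 was nearest to ERS1, BUL1 and INP52 (0.12, 0.16 and 0.17), YAP5 to CDC34, TIM9 and YUR1 (0.13, 0.16 and 0.16), and YAP3 to ENT1, SSQ1 and SYN8 (0.18, 0.19 and 0.21). Of the 7 members with 5 values, none was among the 3 nearest genes of another. Since those 3 were drawn from 3810 named genes, this does not tell whether members resemble one another. The closest 2 members were CAD1 and YAP3 at 0.49. YAP1, with no value for wild type in KCl, was left out of these comparisons.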

How the data were processed

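The authors deposited 1 log ratio per probe and array, read here as log2 of Cy5 over Cy3 from the dyes in the labels. The log base, background correction, normalisation, centring and the cause of missing values are not given in the sources used here. The direction rests on the labels' dyes, and SIW14 was low on the mutant arrays. Per the labels, RNA was polyadenylated, reverse transcribed and dye-coupled. Of 6256 yeast probes, 4075 had 1 symbol in the platform annotation, 0 had several and 2181 had none. Symbols were brought up to date through the RefSeq gene table for 125 probes, except where the current symbol already named another probe. Probes of 1 symbol were averaged (3 symbols), and 53 control features were left out. All 8 members matched by symbol. Coordinates were left out because no source used here names a genome build for the probes.

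With 1 array per comparison no test was run: values, counts at 2-fold or more, medians and the share of all features past the same limit are given. The members and gene lists were chosen with earlier results of these data known. The genes named were the 8 members, their 3 nearest genes, SIW14, and the highest and lowest of each list, not all of which are reported; others were chosen after their values were seen. Of the lists, YBP1, SRX1 and TYW1 were not found by name and were not analysed here. Counting was tested on simulated data. Alternatives were median centring, median centring with each array scaled to the median spread, a 1.5-fold limit, natural logarithms and named genes alone. Scaling before subtraction between arrays was added after seeing the data. Python 3.11.15, pandas 2.3.3, NumPy 2.4.6 and matplotlib 3.10.9 were used.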

Additional observations from a re-analysis of the deposited data

How the results depend on the processing

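No paired analysis was possible because each comparison has 1 array and the labels carry no replicate numbers, and no replicate could be left out. Members had 1 probe each, so the alternative of single probes gave no separate value. At a 1.5-fold limit the count of higher members became 1 in the unstressed mutant, 4 in wild type in peroxide and 5 in the mutant in peroxide, and that of lower members 1 in wild type in KCl and 2 in the mutant in peroxide. Read as natural logarithms, the counts were 1 higher in the unstressed mutant, 4 higher in wild type in peroxide, 1 lower in wild type in KCl, and 4 higher and 2 lower in the mutant in peroxide, and every fold would be larger in size, as for CIN5 in wild type in KCl, 6.35-fold in place of 3.60-fold. Higher members in wild type in KCl numbered 1 after median centring and 1 after scaling to each array's spread, since CAD1 lies at the limit, and scaling put 1 member (CIN5, at 1.76) past 2-fold in the unstressed mutant. Counting named genes alone left all 10 background shares within 1.5 times. No spot intensities were used, and the precision is limited by having 1 array per comparison.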
